A study of Mus musculus with 12 samples.

Results

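Acute phase genes are genes whose products increase when tissue is injured or inflamed, and STAT3 is one of the transcription factors that switch them on. A set of 8 such genes, each known from reactive astrocytes or from the STAT3 pathway, was followed here across mouse brain cells: Osmr, Stat3, Socs3, Serpina3n, Lcn2, Agt, Cp and Steap4. The genes were taken by name from a deposited table of 55421 named entries, and all 8 were found, each in 1 row. The genes were chosen by their FPKM values in all 4 groups, which were known when the set was drawn up. Their levels are therefore described below. Test results and intervals given for these genes are descriptions too, and nothing about the set is concluded from them.

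The libraries were made from brain cells of C57BL/6 mice, 3 libraries in each of 4 groups. A-iSC libraries came from cells that had been astrocytes and were then kept for 5 days as 3D spheres. P56-NSC and P0-NSC libraries came from brain-derived neural progenitors, used as positive controls. P56 and P0 in these names are read here as adult and newborn mice. AST libraries came from astrocytes at 0 days of incubation, used as the negative control. No group carries a transgene, deletion or drug by its labels, and all used 3 µg of Trizol-extracted RNA. Whether replicate libraries stem from separate cultures or animals is not stated, so standard errors and p-values cover the spread among libraries alone, part of which may be technical. Levels are in FPKM, which scales reads by gene length and library size, as the authors deposited them. Differences were taken between means of log2(FPKM + 1) and carry a standard error (SE). This scale understates the change of genes with low values.

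In the pathway, cytokines of the interleukin-6 family bind receptors that contain gp130 (Il6st) and bring JAK kinases together. The kinases phosphorylate STAT3, which moves to the nucleus and activates acute phase genes, and among them Socs3, whose product binds the receptor and switches the signal off. Astrocytes around a brain injury use this route, and Serpina3n, Lcn2, Osmr, Cp and Steap4 are widely used as genes of the reactive astrocyte.

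The promoters of these genes were searched for 2 short motifs, because several of the genes were high in the same libraries. A STAT motif, TTCNNNGAA, reads the same on both strands and stood in 8.3% of 32851 RefSeq promoters (250 bases before to 50 after a start site, build GRCm38.p6). It stood in the promoters of Agt, Steap4 and Socs3, 3 of the 8 genes. A C/EBP-like motif, TTGCNNAA, searched on both strands, stood in 10.8% of all promoters and in those of Lcn2, Cp and Steap4. All 8 genes matched RefSeq, with 9 promoters, since Cp has 2 start sites. The 3 promoters with the STAT motif are shown from 220 to 71 bases upstream of the start site, 5′ to 3′ on the strand of the gene, with the motifs in capitals. Steap4 has both motifs in its window, the STAT motif first. The 2 do not overlap.
Socs3 (chr11:117969437-117969586, minus strand): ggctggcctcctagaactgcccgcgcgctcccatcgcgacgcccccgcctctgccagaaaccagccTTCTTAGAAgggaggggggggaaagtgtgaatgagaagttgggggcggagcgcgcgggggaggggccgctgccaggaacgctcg
Agt (chr8:124569777-124569926, minus strand): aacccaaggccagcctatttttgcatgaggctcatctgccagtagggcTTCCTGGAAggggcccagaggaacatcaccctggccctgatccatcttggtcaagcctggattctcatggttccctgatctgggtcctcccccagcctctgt
Steap4 (chr5:7960252-7960401, plus strand): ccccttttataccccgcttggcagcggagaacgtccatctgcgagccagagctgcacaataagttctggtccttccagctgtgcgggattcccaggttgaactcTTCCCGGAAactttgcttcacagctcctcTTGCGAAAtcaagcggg
The STAT motif begins 154 bases upstream of the RefSeq start site in Socs3, 172 in Agt and 116 in Steap4. In Steap4 the C/EBP-like motif begins at 87. The promoters searched for Socs3, Lcn2 and Osmr lie inside the deposited entries of these genes, which begin farther upstream than the RefSeq start sites. A match describes the letters and does not show that a factor binds there.

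The 8 genes were all higher in A-iSC than in AST and in P0-NSC, and 7 of them were higher in every A-iSC library than in any of the 9 others. The exception was Agt, which was highest in P56-NSC. Of all 15747 genes tested (3 or more libraries at 1 FPKM or above), 7.09% were higher in every A-iSC library than in the 9 others. By level in A-iSC, Serpina3n was the 103rd gene of these 15747 and Steap4 the 10012th, so the set spans abundant and scarce transcripts. All 8 passed the filter on low values, but Lcn2 and Steap4 passed only through the 3 A-iSC libraries.

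**Figure D1:**
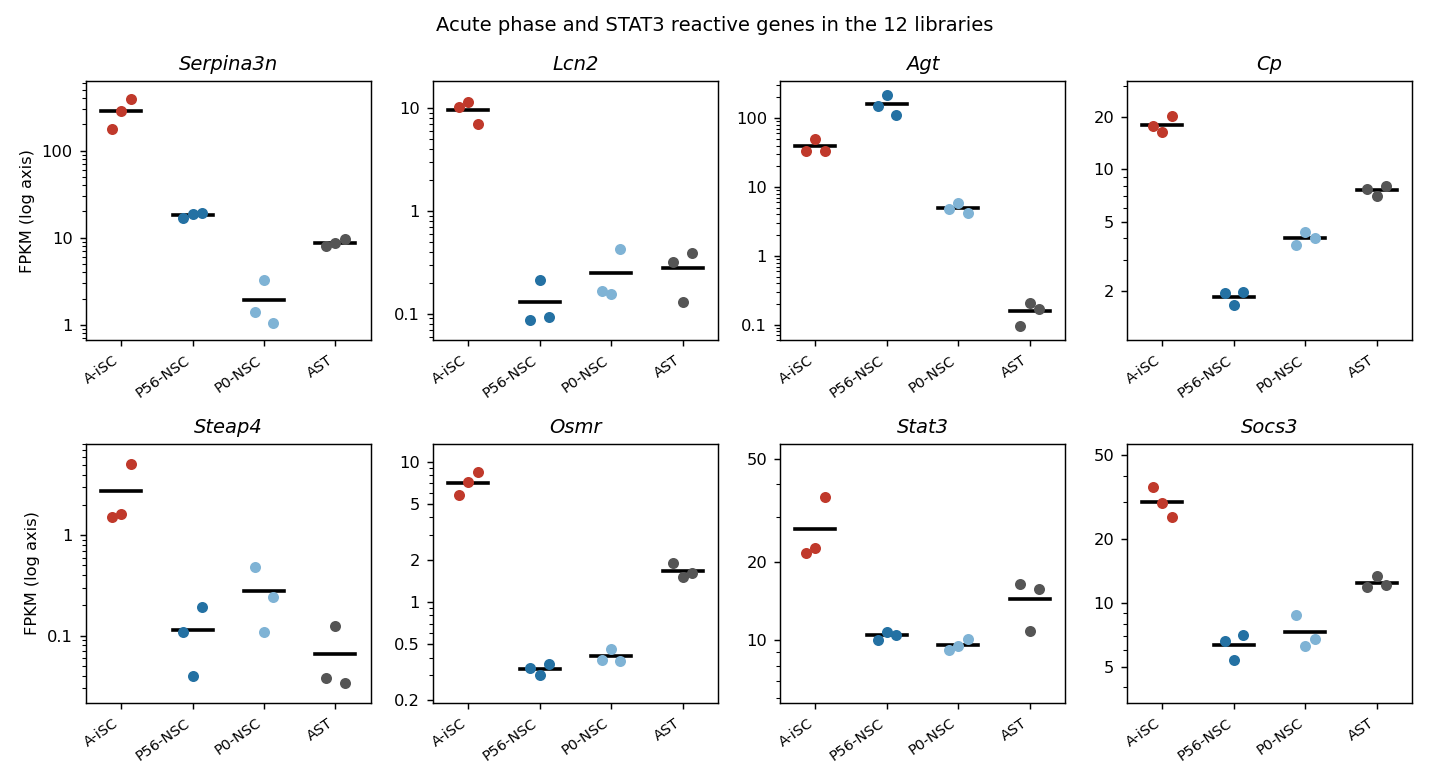
Level of each gene in every library (FPKM, log axis, each panel with its own scale), with 1 point per library and a bar at the mean of the 3 libraries of a group. A-iSC stands above the other groups in 7 panels, and in the Agt panel P56-NSC stands above A-iSC.

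Osmr, the receptor subunit that joins gp130 to bind oncostatin M (ENSMUSG00000022146, chromosome 15: 6813577 to 6874969, minus strand, build GRCm38), had 5.77, 7.12 and 8.38 FPKM in A-iSC. It had 0.338, 0.303 and 0.361 FPKM in P56-NSC, 0.386, 0.465 and 0.381 FPKM in P0-NSC and 1.89, 1.51 and 1.61 FPKM in AST. The order of levels was A-iSC, AST, P0-NSC and P56-NSC, and no neighbours in it overlapped. P56-NSC differed from P0-NSC by only -0.08 ± 0.11 (SE), so the order of these 2 groups is not settled. The difference of A-iSC from AST was 1.59 ± 0.11 (SE), a ratio of 4.24 between the means. Against P56-NSC and P0-NSC it was 2.59 and 2.51, while P56-NSC and P0-NSC lay below AST by differences of -1.0 and -0.92.

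Stat3, the transcription factor itself (ENSMUSG00000004040, chromosome 11: 100885098 to 100939540, minus strand), had 21.8, 22.8 and 35.8 FPKM in A-iSC. The other groups had 10.05, 10.8 and 10.5 FPKM in P56-NSC, 9.16, 9.49 and 10.1 FPKM in P0-NSC and 16.5, 10.9 and 15.8 FPKM in AST. All A-iSC libraries stood above all others, with A-iSC 3 the highest, and P56-NSC and P0-NSC overlapped. Its difference between A-iSC and AST, 0.84 ± 0.18, was the smallest of the 8. Without AST 2 and A-iSC 3 that difference was 0.44. AST 2, at 10.9 FPKM, lay near the P56-NSC libraries and apart from AST 1 and AST 3.

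Socs3, the feedback inhibitor of the receptor (ENSMUSG00000053113, chromosome 11: 117966079 to 117970047, minus strand), had 35.4, 29.6 and 25.5 FPKM in A-iSC. It had 6.66, 5.39 and 7.06 FPKM in P56-NSC, 8.80, 6.25 and 6.77 FPKM in P0-NSC and 11.9, 13.4 and 12.2 FPKM in AST. A-iSC was highest, AST second, and both progenitor groups were lower than AST and overlapped each other. The difference of A-iSC was 1.20 ± 0.14 from AST, 2.08 from P56-NSC and 1.91 from P0-NSC.

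Serpina3n, a secreted inhibitor of serine proteases (ENSMUSG00000021091, chromosome 12: 104406729 to 104414329, plus strand), was the most abundant of the set in A-iSC, at 179, 283 and 393 FPKM. It had 16.8, 18.9 and 19.1 FPKM in P56-NSC, 1.40, 3.25 and 1.06 FPKM in P0-NSC and 8.09, 8.65 and 9.60 FPKM in AST. No 2 groups overlapped, and the order was A-iSC, P56-NSC, AST and P0-NSC. The mean in A-iSC, 285 ± 107 FPKM (SD, n = 3), was 32.4 times that in AST and 150 times that in P0-NSC. On the log2 scale A-iSC differed by 4.80 ± 0.28 from AST, by 3.82 from P56-NSC and by 6.62 from P0-NSC. Its 10 neighbouring paralogs of the Serpina3 cluster were all below the filter, none with a group mean above 0.350 FPKM, that of Serpina3h in A-iSC. Reads of 50 bases can still be shared: 6.90% of the 50-base windows of the Serpina3n transcripts also occur in other genes, the largest share of them (2.68% of all windows) in the pseudogene Serpina3e-ps, so a small part of its reads is uncertain.

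Lcn2, lipocalin 2, a secreted protein that binds iron-carrying siderophores (ENSMUSG00000026822, chromosome 2: 32384633 to 32388252, minus strand), had 10.3, 11.6 and 7.05 FPKM in A-iSC. Every other library was under 0.5 FPKM: 0.0878, 0.214 and 0.0926 in P56-NSC, 0.167, 0.157 and 0.429 in P0-NSC and 0.318, 0.132 and 0.390 in AST. The 3 low groups overlapped their neighbours and cannot be put in order at this depth. The 1763 reads in A-iSC stood against 40 in AST, a ratio per total of 34.7 with a 95% exact interval of 25.3 to 48.7. That interval, like those below, covers counting error only. The log2 difference from AST was 3.04 ± 0.16.

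Agt, angiotensinogen, the precursor of the angiotensins and a known product of astrocytes (ENSMUSG00000031980, chromosome 8: 124556534 to 124569706, minus strand), had 33.7, 49.7 and 33.1 FPKM in A-iSC. It had 151, 216 and 112 FPKM in P56-NSC and 4.85, 5.81 and 4.22 FPKM in P0-NSC, and was near the limit of detection in AST at 0.0946, 0.209 and 0.171 FPKM. No 2 groups overlapped, and P56-NSC stood above A-iSC. A-iSC differed by 5.08 ± 0.22 from AST and by -1.99 ± 0.22 from P56-NSC. The 5198 reads in A-iSC stood against 17 in AST, a ratio per total of 240.4 with an exact interval of 150 to 413. AST 1, AST 2 and AST 3 held 3, 8 and 6 of those 17 reads.

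Cp, ceruloplasmin, a copper-carrying ferroxidase (ENSMUSG00000003617, chromosome 3: 19957054 to 20009145, plus strand), had 17.8, 16.4 and 20.1 FPKM in A-iSC. It had 1.95, 1.65 and 1.95 FPKM in P56-NSC, 3.66, 4.38 and 4.01 FPKM in P0-NSC and 7.67, 7.04 and 8.03 FPKM in AST. The 4 groups did not overlap and kept the order of Osmr. The difference of A-iSC was 1.15 ± 0.10 from AST and 2.74 from P56-NSC, and that of P56-NSC from AST was -1.59. Cp overlaps Hps3 on the opposite strand by 108 of its 9566 exon bases, and Stat3 overlaps Stat5a by 72 of 9527. The labels do not say that strand was kept, so reads there cannot be told apart.

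Steap4, a metalloreductase of iron and copper (ENSMUSG00000012428, chromosome 5: 7960457 to 7982213, plus strand), was the scarcest and the most variable, at 1.51, 1.61 and 5.08 FPKM in A-iSC. It had 0.110, 0.0395 and 0.192 FPKM in P56-NSC, 0.485, 0.109 and 0.242 FPKM in P0-NSC and 0.0378, 0.125 and 0.0341 FPKM in AST. A-iSC stood apart from the rest, while P0-NSC overlapped P56-NSC and P56-NSC overlapped AST. The 647 reads in A-iSC stood against 12 in AST, a ratio per total of 42.4 with an exact interval of 24.1 to 82.5. Single libraries carry that ratio: A-iSC 3 held 430 of the 647 reads and AST 2 held 8 of the 12, and the ratio was 22.9 without A-iSC 3 and 80.8 without AST 2. The log2 difference was 1.68 ± 0.27.

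Beside AST, the levels in the progenitor groups differed from gene to gene. Osmr, Stat3, Socs3 and Cp were lower in every P56-NSC library than in any AST library, as were 39.8% of all tested genes. For Stat3 the margin was narrow, with P56-NSC 2 at 10.82 FPKM and AST 2 at 10.88 FPKM. Its difference was not called (-0.40 ± 0.18, limma adjusted p = 0.0617). Osmr, Stat3, Socs3, Cp and Serpina3n were lower in every P0-NSC library than in any AST library, as were 40.7% of all tested genes. Nothing is read from these counts, because the genes were chosen by these same values. Agt was higher in both progenitor groups than in AST. Serpina3n was higher in P56-NSC (0.98) and lower in P0-NSC (-1.82) than in AST, and Lcn2 and Steap4 overlapped AST in both. All 6 comparisons reuse the same libraries, so those that share AST or A-iSC are not independent.

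In the limma fit over all tested genes (called where the adjusted p of Benjamini and Hochberg was under 0.05), the 8 genes were all called higher in A-iSC against AST, where 28.1% of all tested genes were, and nothing is read from that count because the same values chose the genes. The same holds for the counts that follow. Against P56-NSC, 7 were called higher (31.5% of all genes) and 1, Agt, lower (31.3%). Against P0-NSC, all 8 were called higher (32.6%). In P56-NSC against AST, 2 were called higher (37.1%) and 3 lower (37.0%), and in P0-NSC against AST 1 was called higher (35.9%) and 5 lower (38.3%). Of these 5, Stat3 (-0.52 ± 0.18, limma adjusted p = 0.0213), lost the call in 8 of 18 alternatives, with an adjusted p of up to 0.239. In P56-NSC against P0-NSC, Serpina3n and Agt were called higher (35.3%) and Cp lower (33.9%).

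**Figure D2:**
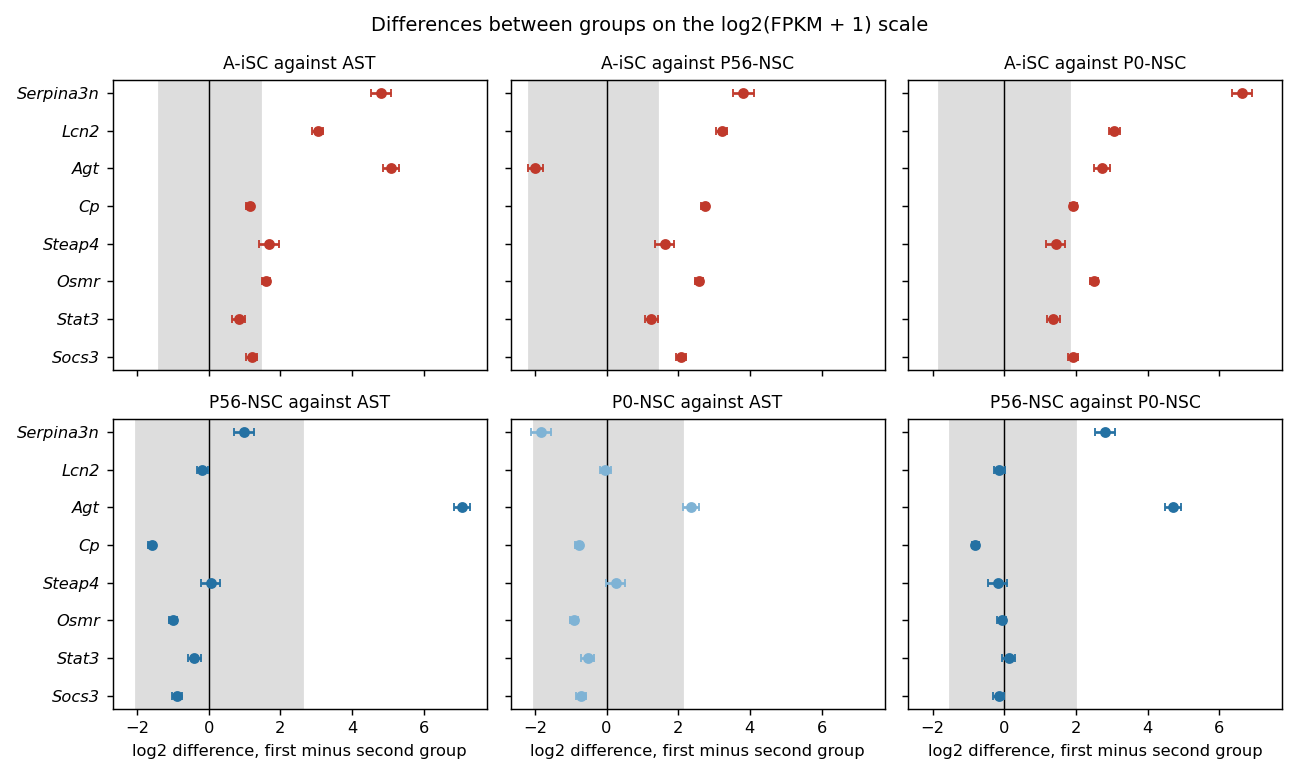
Log2 difference of each gene, first minus second group on the log2(FPKM + 1) scale, in 6 comparisons, with bars of 1 standard error and a grey band from the 5th to the 95th percentile of all tested genes. In A-iSC against AST, Serpina3n (4.80), Lcn2 (3.04) and Agt (5.08) lie far beyond the band, while Stat3 (0.84), Cp (1.15) and Socs3 (1.20) lie within it.

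Other genes of the same routes were counted from 10 lists, 1 of which, the paralogs of Serpina3n, had no gene above the filter. In A-iSC against AST, 66 of their 135 tested genes rose and 37 fell, so that 76.3% were called against 58.9% of all tested genes. With libraries scaled by their total reads, 75 rose and 32 fell, and the share of higher calls among all called genes was 61.0% in place of 47.7%. Of all tested genes 28.1% rose and 30.8% fell. The listed genes were called at 81.5% against 74.1% of all genes in P56-NSC against AST, at 80.0% against 74.2% in P0-NSC against AST and at 81.5% against 62.9% in A-iSC against P56-NSC. In A-iSC against P0-NSC the shares were 83.0% and 67.3% (34.7% of all genes fell there), and in P56-NSC against P0-NSC 69.6% and 69.2%. The lists were chosen with earlier results of these data known, and the counts stand beside the background without a further test.

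The cytokines that can start the signal were mostly lower in A-iSC than in AST. Of 12 listed, 8 were tested, 2 rose and 6 fell. Lif, leukaemia inhibitory factor, fell to 1.09 ± 0.301 FPKM in A-iSC, against 16.3 ± 3.72 FPKM in AST (SD, n = 3 each; log2 difference -3.04 ± 0.16 SE, limma adjusted p = 1.79e-08). Outside the naming rule, and chosen after their values were seen, the 2 that rose were Osm, the ligand of the Osmr receptor, at 4.28 ± 1.30 FPKM in A-iSC and 0.981 ± 0.237 FPKM in AST (log2 difference 1.39, limma adjusted p = 3.28e-05), and Ebi3, at 4.11 FPKM in A-iSC and 0.516 FPKM in AST. Il6 itself was scarce in every group, at 0.347 FPKM in A-iSC and 1.09 FPKM in AST.

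The receptors went the other way as a list, which holds those of the gp130 family and related receptors outside it, such as Il10ra, Tnfrsf1a and Ifngr2. Of 14 tested, 13 rose in A-iSC against AST and 1 did not pass the test (11 rose and 1 fell after quantile normalization), although several differences were small, with a median log2 difference of 0.46 against 0.00 over all genes. Il10ra, the interleukin-10 receptor chain, rose to 12.9 FPKM in A-iSC, against 0.631 FPKM in AST (log2 difference 3.10 ± 0.12, limma adjusted p = 1.89e-09). Cntfr, the receptor of ciliary neurotrophic factor, rose to 9.58 FPKM in A-iSC, against 1.84 FPKM in AST (limma adjusted p = 2.63e-06). Il6st, the shared gp130 chain, rose to 31.95 ± 15.0 FPKM in A-iSC, against 14.2 ± 2.53 FPKM in AST (log2 difference 1.04 ± 0.25, limma adjusted p = 0.00338).

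Among the kinases and the other STATs, 6 of 8 tested genes rose and the others did not pass the test. Stat2, which carries interferon signals, rose to 20.1 FPKM in A-iSC, against 6.96 FPKM in AST (log2 difference 1.36 ± 0.19, limma adjusted p = 8.57e-05). Tyk2 and Stat6 rose by smaller steps (log2 differences 0.90 and 0.75). Of the 16 feedback inhibitors other than Socs3, 6 rose and 3 fell, and without AST 2 and A-iSC 3, 5 rose and 5 fell. Ptpn6, a phosphatase of blood-derived cells, rose to 25.9 FPKM in A-iSC, against 3.25 FPKM in AST (log2 difference 2.63 ± 0.19, limma adjusted p = 2.89e-07). Socs5 fell to 4.25 FPKM in A-iSC, against 9.63 FPKM in AST (limma adjusted p = 2.71e-05).

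Other genes known as STAT3 targets moved both ways in A-iSC against AST, 10 up and 8 down among 23, with a median log2 difference of 0.06. Gfap, the intermediate filament of astrocytes, rose to 970.0 FPKM in A-iSC, against 29.9 FPKM in AST (log2 difference 4.88 ± 0.26, limma adjusted p = 1.97e-08), and Bcl3, a co-regulator of NF-kB, rose to 6.79 FPKM in A-iSC, against 0.288 FPKM in AST. Ccnd1, cyclin D1, fell to 12.3 FPKM in A-iSC, against 428 FPKM in AST (log2 difference -5.00 ± 0.17, limma adjusted p = 1.02e-09), and Timp1, an inhibitor of matrix proteases, fell to 41.7 FPKM in A-iSC, against 351 FPKM in AST. A list of reactive astrocyte genes, which holds Gfap and Timp1 too, was also evenly split, 13 up and 13 down among 29. The antigen-presentation genes H2-T23 (log2 difference 3.18) and H2-D1 (2.82) were its next largest rises.

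Other acute phase genes leaned upward. Of 33 listed, 16 were tested, 11 rose and 3 fell, with a median log2 difference of 1.80. The complement genes C4b and C3 rose to 45.2 and 17.9 FPKM in A-iSC, against 0.341 and 0.580 FPKM in AST (log2 differences 5.09 and 3.55, limma adjusted p = 4.94e-10 and 6.18e-09). Itih3, a heavy chain of inter-alpha-trypsin inhibitor, rose to 28.5 FPKM in A-iSC, against 0.690 FPKM in AST. Some acute phase genes typical of liver, such as Crp, Apcs, Fga, Fgb, Fgg and Serpina1a, stayed below the filter. Apcs and Serpina1a were listed at 0 in every group.

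The other genes of the routes of Agt and of the metal-handling members moved both ways. Of 9 tested renin-angiotensin genes, 1 rose and 3 fell in A-iSC against AST, a share called of 44.4% against 58.9% of all genes. With scaling by total reads 2 rose and 2 fell, and after quantile normalization 2 rose and 1 fell. Mme, neprilysin, fell to 0.391 FPKM in A-iSC, against 6.45 FPKM in AST (limma adjusted p = 2.82e-09), and Ren1, renin, was at 0 in both. Ace, the angiotensin-converting enzyme, rose to 7.66 FPKM in P56-NSC and to 7.85 FPKM in P0-NSC, against 0.459 FPKM in AST (log2 differences 2.56 and 2.54, limma adjusted p = 7.08e-07 and 8.73e-07), although Agt differed widely between the 2 progenitor groups. Of 19 iron and copper genes, 7 rose and 5 fell in A-iSC against AST, and without AST 2 and A-iSC 3, 7 rose and 9 fell. Trf, transferrin, rose to 143 FPKM in A-iSC, against 7.71 FPKM in AST (log2 difference 4.05 ± 0.11, limma adjusted p = 3.87e-10), and Steap1, a relative of Steap4, fell to 0.931 FPKM in A-iSC, against 8.11 FPKM in AST.

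**Figure D3:**
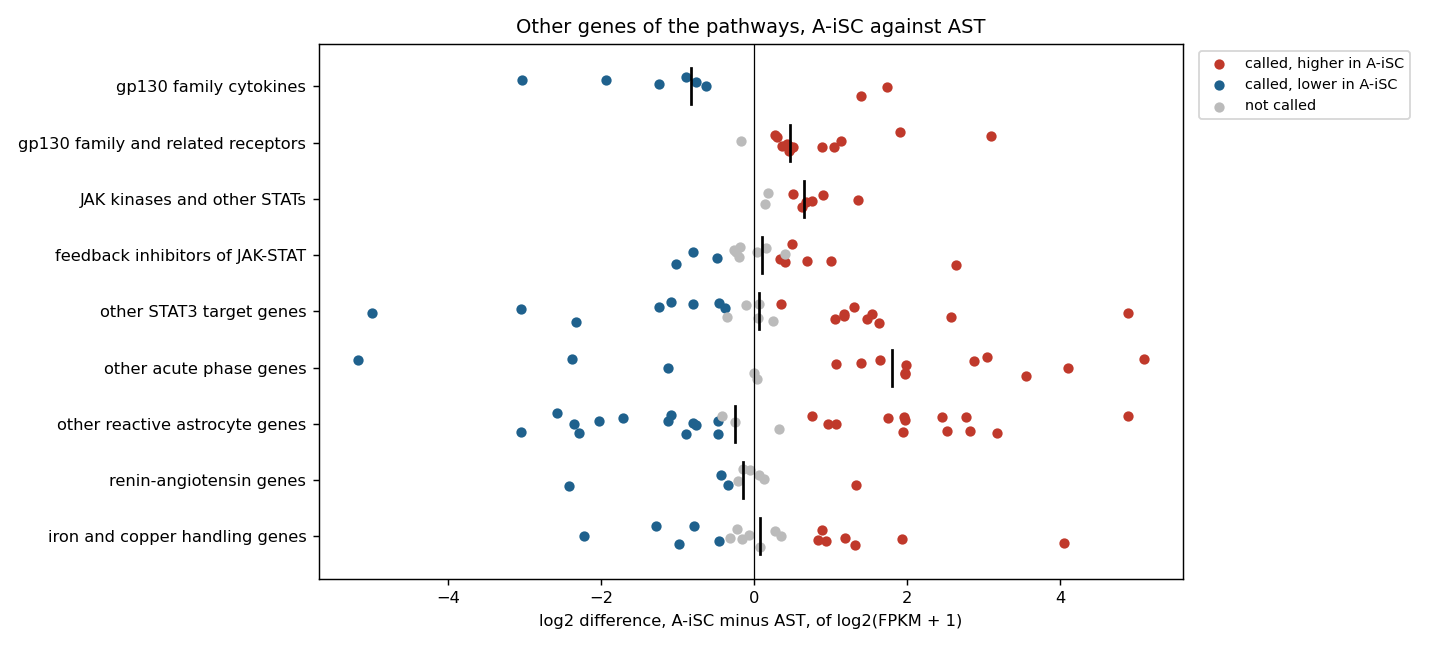
Log2 difference, A-iSC minus AST on the log2(FPKM + 1) scale, of the tested genes of 9 lists, with 1 point per gene, colour by the limma call and a black bar at the median of the list. The cytokines lie mostly on the lower side (6 of 8), and the gp130 family and related receptors on the higher side (13 of 14). The acute phase genes have the highest median (1.80).

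Against the progenitors more of the listed genes rose than fell. In A-iSC against P56-NSC, 84 listed genes rose and 26 fell, and in A-iSC against P0-NSC, 88 rose and 24 fell. Of 29 reactive astrocyte genes, 26 rose and 2 fell against P56-NSC and 24 rose and 4 fell against P0-NSC, and Cd44, a cell-surface receptor for hyaluronan, rose to 31.3 FPKM in A-iSC, against 0.534 FPKM in P56-NSC (log2 difference 4.39 ± 0.10, limma adjusted p = 1.19e-11). Of the 8 tested cytokines, 7 rose against P56-NSC and 8 rose against P0-NSC. The iron and copper genes did not follow, with 5 up and 7 down against P56-NSC and 6 up and 5 down against P0-NSC, and 4 of the renin-angiotensin genes rose and 4 fell against P0-NSC. The progenitor groups lay below AST for most of the lists: 71 genes fell and 39 rose in P56-NSC against AST, and 82 fell and 26 rose in P0-NSC against AST. Among 23 STAT3 targets, 15 and 16 fell in these 2 comparisons, which share the AST libraries. In P56-NSC against AST, 3 lists did not lean downward: 9 acute phase genes rose and 6 fell, 8 iron and copper genes rose and 4 fell, and 6 receptors rose and 6 fell. That depends on the processing. With libraries scaled by their total reads, 6 iron and copper genes rose and 7 fell, and 5 receptors rose and 6 fell. With a filter at 5 FPKM, 6 acute phase genes rose and 7 fell. In P56-NSC against P0-NSC, 62 listed genes rose and 32 fell, but 36 rose and 54 fell with libraries scaled by their total reads, so that direction depends on the scaling.

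The levels of cell type markers also differed between the groups. All 10 microglia and macrophage markers rose in A-iSC against AST, with none of them at 0. Their summed level was 2803 to 3710 FPKM in A-iSC and 833 to 916 FPKM in P56-NSC. It was 128 to 155 FPKM in P0-NSC and 230 to 287 FPKM in AST. C1qa, Ctss and C1qb carry most of the A-iSC sum, at 1029, 978 and 965 FPKM. Against P56-NSC, 7 of these markers were called higher in A-iSC and 2 lower. P2ry12 had 7.30 FPKM in A-iSC and 60.2 FPKM in P56-NSC, and Tmem119 had 16.8 and 52.2 FPKM. Of 10 astrocyte markers, 9 rose in A-iSC against AST. The sum of the 10 was 1250 to 2526 FPKM in A-iSC and 2982 to 3237 FPKM in P56-NSC. It was 258 to 322 FPKM in P0-NSC and 159 to 180 FPKM in AST, although 5 astrocyte markers rose and 4 fell in P0-NSC against AST. Fibroblast and mural markers summed to 34.3 to 67.1 FPKM in A-iSC, against 1884 to 2269 FPKM in AST, the highest sum of the 4 groups. Acta2 carries most of the AST sum, at 1848 FPKM in AST and 3.04 FPKM in P0-NSC. Of these 9 markers, 1 rose and 5 fell in A-iSC against AST, while 6 rose and 2 fell in P0-NSC against AST. The part of these markers in the results on the 8 genes was not tested. In such mixed samples, fewer cells of a type and less RNA per cell cannot be told apart.

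Markers of other cell types were also present, and the progenitor markers did not all follow the labels. The sum of 10 stem and progenitor markers was lower in P56-NSC (236 to 263 FPKM) and in P0-NSC (889 to 973 FPKM) than in A-iSC (1573 to 2104 FPKM) and in AST (2610 to 3580 FPKM). Vim carries much of that sum, at 41.4 FPKM in P56-NSC, 142 FPKM in P0-NSC and 2186 FPKM in AST. Marker by marker, 3 of the 10 rose and 7 fell in P56-NSC against AST, and 6 rose and 4 fell in P0-NSC against AST, with Hes5 at 15.9 FPKM in P0-NSC and 0.463 FPKM in AST. P56-NSC libraries held 10931 to 12425 FPKM of 9 oligodendrocyte markers, against 21.1 to 22.9 FPKM in AST, where Mobp was at 0. Choroid plexus markers summed to 1501 to 3190 FPKM in P56-NSC and 751 to 3853 FPKM in P0-NSC, against 7.57 to 9.20 FPKM in AST. Red blood cell genes summed to 360.0 to 565 FPKM in P56-NSC and 163 to 338 FPKM in P0-NSC, and to at most 0.548 FPKM in A-iSC and 0.143 FPKM in AST.

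The genes whose levels were most like those of the set were then listed, as a description over 12 libraries that share their groups. Among 6708 genes that averaged 10 FPKM or above in some group, those closest to Serpina3n were Mpeg1 (Pearson r = 0.991), Tlr13 and Plek, genes known from macrophages. The closest to Osmr was Cybb (r = 0.994), a subunit of the phagocyte oxidase, and to Socs3 it was Irf7 (r = 0.992), an interferon-response factor, with the chemokine Ccl5 next. Lcn2 was closest to Arg1 (r = 0.993), arginase, with the acute phase gene Saa3 also among its nearest. Cp was closest to Igf1 (r = 0.983) and Stat3 to Abca1 (r = 0.975), a lipid transporter. Steap4 was closest to Matn2, at a lower r of 0.956.

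Agt had another set of neighbours: Atp1b2 (r = 0.993), Cldn10 and Aldoc, genes known from astrocytes. Aldoc had 406 FPKM in A-iSC, 1167 FPKM in P56-NSC, 90.1 FPKM in P0-NSC and 13.04 FPKM in AST, the same order of groups as Agt. Within the set, Osmr and Socs3 were the closest pair (r = 0.964), and Agt had an r of -0.26 to 0.48 with the 7 others.

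**Figure D4:**
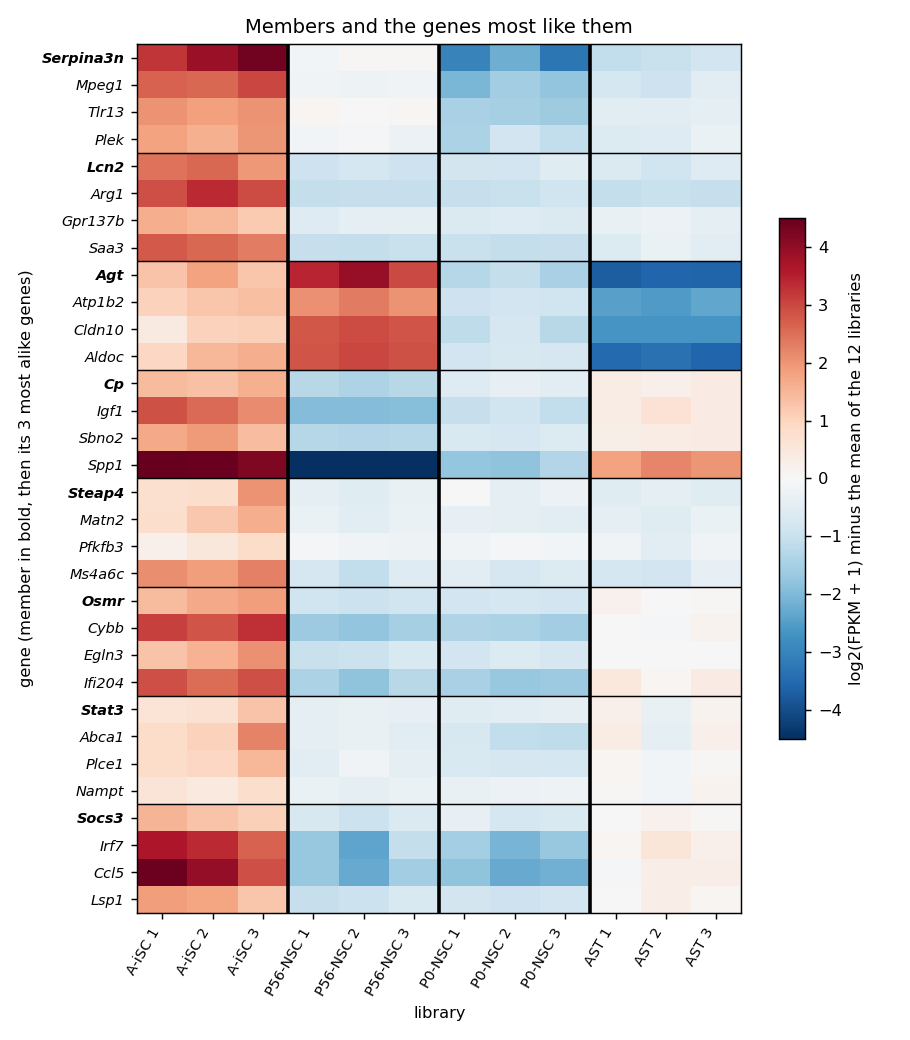
Levels of the 8 genes (bold) and of the 3 genes most like each, in 12 libraries, as log2(FPKM + 1) minus the mean of the gene over all libraries, with values beyond the ends of the scale drawn in the end colours. Most rows are high in the 3 A-iSC libraries, and the rows of Agt, Atp1b2, Cldn10 and Aldoc are highest in P56-NSC and lowest in AST.

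Within A-iSC the 8 genes did not vary together. A-iSC 3 was above the mean of A-iSC 1 and A-iSC 2 for Steap4 (by 1.25 on the log2(FPKM + 1) scale), Serpina3n (0.80), Stat3 (0.66), Osmr (0.34) and Cp (0.23). It was below that mean for Agt (-0.30), Socs3 (-0.33) and Lcn2 (-0.57). Over all tested genes the same difference moved with gene length, with a median of -0.17 for genes under 2.5 kb, -0.02 for 2.5 to 5 kb and 0.14 for 5 kb and more. Stat3, Cp and Osmr belong to the longest class and Agt to the shortest, so their library differences have the sign of the medians of their classes. Serpina3n, at 2064 bases, and Steap4, at 3155 bases, do not.

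The sums of the cell markers also differed among the A-iSC libraries. The astrocyte sum was 1250, 1541 and 2526 FPKM in A-iSC 1, A-iSC 2 and A-iSC 3, and the microglia and macrophage sum 3710, 3103 and 2803 FPKM. Serpina3n, at 179, 283 and 393 FPKM, had its highest level where the astrocyte sum was highest. Gfap, at 658, 769 and 1483 FPKM, is itself 1 of the 10 markers in that sum. Socs3, at 35.4, 29.6 and 25.5 FPKM, had its highest level where the microglia and macrophage sum was highest, as did Irf7 (79.7, 65.0 and 40.3 FPKM). Tlr13 was nearly level in A-iSC 1 and A-iSC 3 and lower in A-iSC 2 (14.2, 14.0 and 12.4 FPKM). Mpeg1 (222, 210 and 282 FPKM), Cybb (31.2, 26.3 and 36.2 FPKM) and Plek (29.4, 24.9 and 33.1 FPKM) were instead highest in A-iSC 3, where that sum was lowest. With 3 libraries these orders are descriptions, and the part of the markers in them was not tested.

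**Figure D5:**
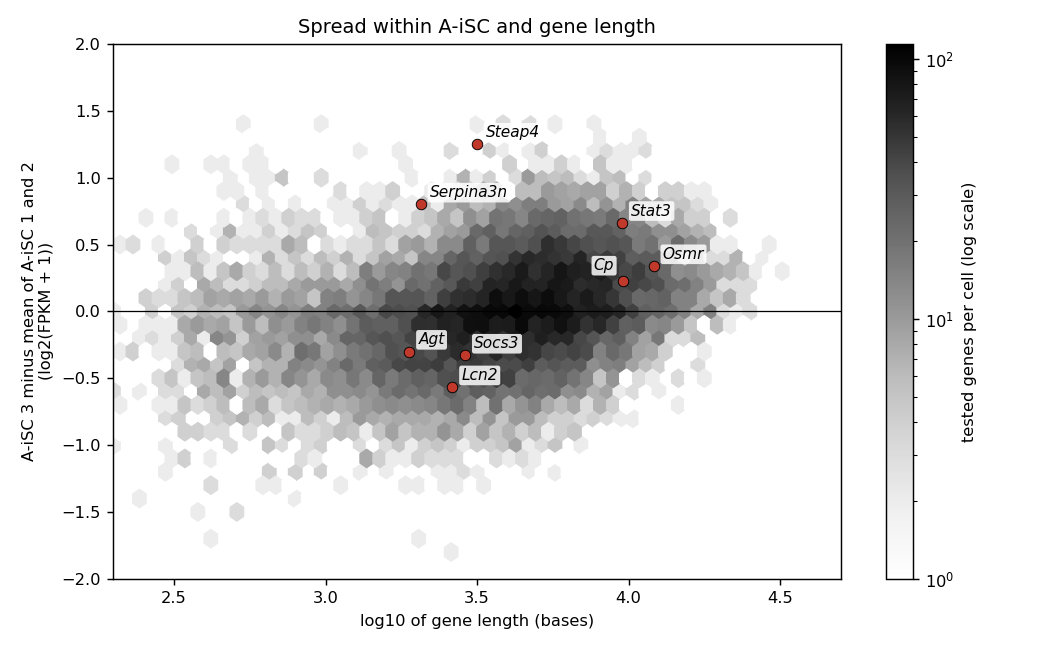
Difference of A-iSC 3 from the mean of A-iSC 1 and A-iSC 2 on the log2(FPKM + 1) scale, against gene length (log10 of bases), with all tested genes as grey cells and the 8 genes as red points. Steap4 (1.25) and Serpina3n (0.80) stand at the upper edge of genes of their length, and Lcn2 (-0.57), Socs3 (-0.33) and Agt (-0.30) lie below 0.

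The 12 libraries held 17077780 to 24452419 reads by the whole reads that the FPKM values imply, and a single read added 0.0343 to 0.0623 FPKM to a gene with a length of 1 kb. The AST values of Agt, and the values of Lcn2 and Steap4 outside A-iSC, therefore rest on few reads. Library shape differed too: the deviation of a library from its group followed gene length with a Spearman correlation across genes of -0.281, -0.233 and 0.328 in A-iSC 1, A-iSC 2 and A-iSC 3, and of 0.361, -0.450 and 0.385 in AST 1, AST 2 and AST 3. Stat3 differed by 0.97 with only AST 2, A-iSC 1 and A-iSC 2 beside the progenitor libraries and by 1.10 with only AST 1, AST 3 and A-iSC 3 beside them.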

How the data were processed

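RNA of 12 mouse brain cell libraries was sequenced from NEBNext Ultra kits, per the labels' protocols. Bowtie 0.12.2, mm8 and mm9 are listed in the submitters' processing notes. The counting tool was not given in the sources used here. Deposited coordinates are those of GRCm38, since 99.5% of the 55154 identifiers that GENCODE M21 also holds match in position and strand. The deposited values are FPKM, which the authors scaled between libraries by a factor of 0.744 to 1.22. Multiplied by gene length, 100% of values came out as whole reads (within 0.01), 17077780 to 24452419 per library. The 441 entries without a gene name (0.0957% to 0.156% of reads) were left out.

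Here log2(FPKM + 1) was fitted with limma 3.58.1 (trend; R 4.3.3, data.table version 1.17.8), with 4 group means over 12 libraries, for the 15747 genes that reached 1 FPKM in 3 or more libraries. Each comparison was adjusted by Benjamini-Hochberg and called below 0.05. The fit was tested on simulated data. Alternatives were a pseudocount of 0.1, other filters, quantile and total-read scaling, voom on the recovered reads (A-iSC against AST: 9466 genes called, compared with 9279), a replicate block and left-out libraries. Python 3.11.15 with numpy 2.4.6, pandas 2.3.3 and matplotlib 3.10.9 made tables and figures.

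The members and lists were chosen with earlier results of these data known. Named list genes are called genes averaging 5 FPKM or above in the higher group, the 4 largest changes per list for A-iSC against AST and the 3 largest elsewhere, and fewer are given here, since some are not reported. For each member the 3 genes with the highest Pearson correlation were named. Osm, Ebi3, Il6, Ren1 and the genes below the filter fall outside this rule and were named after their values were seen. Intervals are exact binomial on summed reads.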

Additional observations from a re-analysis of the deposited data

How the results depend on the processing

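Of 48 differences (8 genes in 6 comparisons), 38 kept their direction and their side of the threshold under all alternatives run, 14 to 18 each. All 8 differences of A-iSC from AST, values that the choice of genes had used, were among them: Serpina3n ranged over 4.52 to 5.33, Agt over 4.89 to 8.05, Lcn2 over 2.57 to 5.40 and Stat3 over 0.44 to 1.10. The reversals were all of small differences. P0-NSC against AST for Lcn2 (-0.03) became 0.021 with scaling by total reads, 0.14 with voom on total reads and 0.14 with only AST 2, A-iSC 1, A-iSC 2 and the progenitors, and leaving out single libraries gave -0.134 to 0.0275, above 0 without P0-NSC replicate 1 (0.012), P0-NSC replicate 2 (0.018) or AST replicate 3. For Steap4, P56-NSC against AST (0.06) became -0.18 after quantile normalization and -0.017 with only AST 2, A-iSC 1, A-iSC 2 and the progenitors, and P0-NSC against AST (0.25) became -0.018 after quantile normalization. For Stat3, P56-NSC against P0-NSC (0.12) became -0.46 and -0.51 with the 2 scalings by total reads. Those scalings called 5 and 6 of the 8 genes in P56-NSC against P0-NSC, in place of 3, and 75.1% and 75.3% of all genes, in place of 69.2%. Calls of Stat3 in P0-NSC against AST were lost in 8 alternatives (differences from -0.51 to -0.17), and in P56-NSC against AST it was called in 7. Serpina3n in P56-NSC against AST lost its call with scaling by total reads (0.66). The cause was not tested. Scaling by total reads in the limma fit moved the median log2 difference of all genes by 0.12 (A-iSC against AST), 0.40 (A-iSC against P56-NSC), -0.24 (P56-NSC against AST), 0.20 (P0-NSC against AST) and -0.45 (P56-NSC against P0-NSC). Under it the share of higher calls became 73.4% in place of 50.1% in A-iSC against P56-NSC, 38.7% in place of 50.1% in P56-NSC against AST, 58.8% in place of 48.4% in P0-NSC against AST and 27.3% in place of 51.0% in P56-NSC against P0-NSC. Leaving out single libraries called 8415 to 9898 genes in A-iSC against AST, and 8 of the 8.

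Same-numbered libraries of different groups deviated together with correlations of -0.39 to 0.44 (18 pairs). In A-iSC against AST the correlations were -0.39, 0.34 and 0.44 for libraries 1, 2 and 3. The deviations of these libraries also followed gene length, so the correlations cannot show whether the numbers pair the libraries. With the replicate number as a block, 9149 genes and all 8 members were called in A-iSC against AST, and 6 in place of 5 in P56-NSC against AST, where 73.6% of all genes were called.

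Agt in AST, and Lcn2 and Steap4 outside A-iSC, rest on few reads. The spread is that of 3 libraries per group.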
